A study of Mus musculus with 16 samples.

Results

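Ccr7, Cxcr5, Cxcr4, Gpr183, S1pr1, Il4ra, Cd55, Cd200 and Satb1, 9 genes of follicular B cells and of lymphocyte trafficking, were measured in splenic B cells of 3'RR-deficient and wild-type mice. They were found by their gene name in the array annotation, and 9 of 34821 gene names and 10 of 55681 non-control probes were theirs, with 1 probe for each gene and 2 for Il4ra. The 3'RR is the enhancer region downstream of the immunoglobulin heavy chain constant genes, and none of the 9 genes lies in that locus. All 10 probes were well above background on 16 of 16 arrays, so none was lost to a filter on low signal.

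Mature B cells recirculate between blood and lymphoid organs and are sorted inside them by receptors that read gradients of chemokines and lipids. Cxcr5 draws B cells into the follicle, Ccr7 to the T cell zone and to the border between both, Gpr183 (EBI2) to the outer follicle through oxysterols, Cxcr4 to sources of Cxcl12, and S1pr1 out of the tissue towards sphingosine-1-phosphate in blood and lymph. Il4ra is the ligand-binding chain of the interleukin 4 receptor, which drives B cell growth and switching to IgE and IgG1. Cd55 protects cells from complement, Cd200 is a surface ligand that restrains myeloid cells through its receptor, and Satb1 organises chromatin in lymphocytes.

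Total RNA of B220-positive splenic cells, 0.2 microgram per sample with a RIN of 9, was hybridised in a single colour to 16 arrays on 2 slides. Each slide held 4 deficient and 4 wild-type arrays. The deficient mice had the heavy chain allele of 129 origin knocked out on a BALBC background and the strain entry BALBC, whereas the wild-type mice had the strain entry 129, so genotype and strain cannot be told apart. The labels give no age and no treatment for any sample, and they describe both slides in the same words. The series text names 4 mice per genotype, whereas 8 arrays per genotype were analysed. Whether every array stands for a separate mouse is not given, and the p-values then reflect how these samples scatter, some of which may be technical.

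Values are log2 signals minus the 75th percentile of the same array, so 0 marks that percentile. Levels are compared between arrays, for 1 probe or for the mean of a gene list. Between probes they were compared only to pick the brightest probe of a gene. Group differences came from 1 limma fit over 32881 measured probes, and a difference was called at a Benjamini-Hochberg adjusted p below 0.05. The 75th percentile lay between 576.1 and 850.8 intensity units on slide 1 and between 596.2 and 990.5 on slide 2, and no member spot was saturated. General B cell markers averaged 6.18 to 6.50 on the arrays of slide 1 and 5.30 to 5.68 on those of slide 2. The slides differed in markers of other cells: 12 macrophage and monocyte genes averaged 1.66 to 2.97 on slide 1 and -3.36 to -2.65 on slide 2, and 16 T cell genes averaged 0.09 to 0.63 and -2.09 to -1.75. Thy1, 1 of these T cell genes, was higher on slide 2, by 4.70 in wild-type and 4.67 in deficient cells. Genotype differences are therefore given within each slide as well as over both.

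Over both slides, 4 of the 10 probes differed between genotypes, with Cxcr5 higher and Cxcr4, Gpr183 and Cd200 lower in deficient cells, against 16.8% of all probes tested called. On slide 1, Gpr183 and Cd200 were lower, 2 of 10 probes against 23.3% of all probes. On slide 2, Cxcr5 and Satb1 were higher, 2 of 10 against 7.46%. The median difference of the 10 probes was -0.24 over both slides, -0.46 on slide 1 and -0.07 on slide 2, beside all-probe medians of -0.03, -0.07 and 0.01. The 4 deficient and 4 wild-type arrays did not overlap for 3 member probes on slide 1, where 21.6% of all probes did not, and for 4 on slide 2, where 22.8% did not. With arrays scaled to their median in place of the 75th percentile, the same number of 4 probes was called over both slides, while the share of called probes that were higher in deficient cells moved from 45.1% to 59.8% over all probes. In such bulk RNA, fewer cells of a type and less RNA per cell cannot be told apart.

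**Figure D1:**
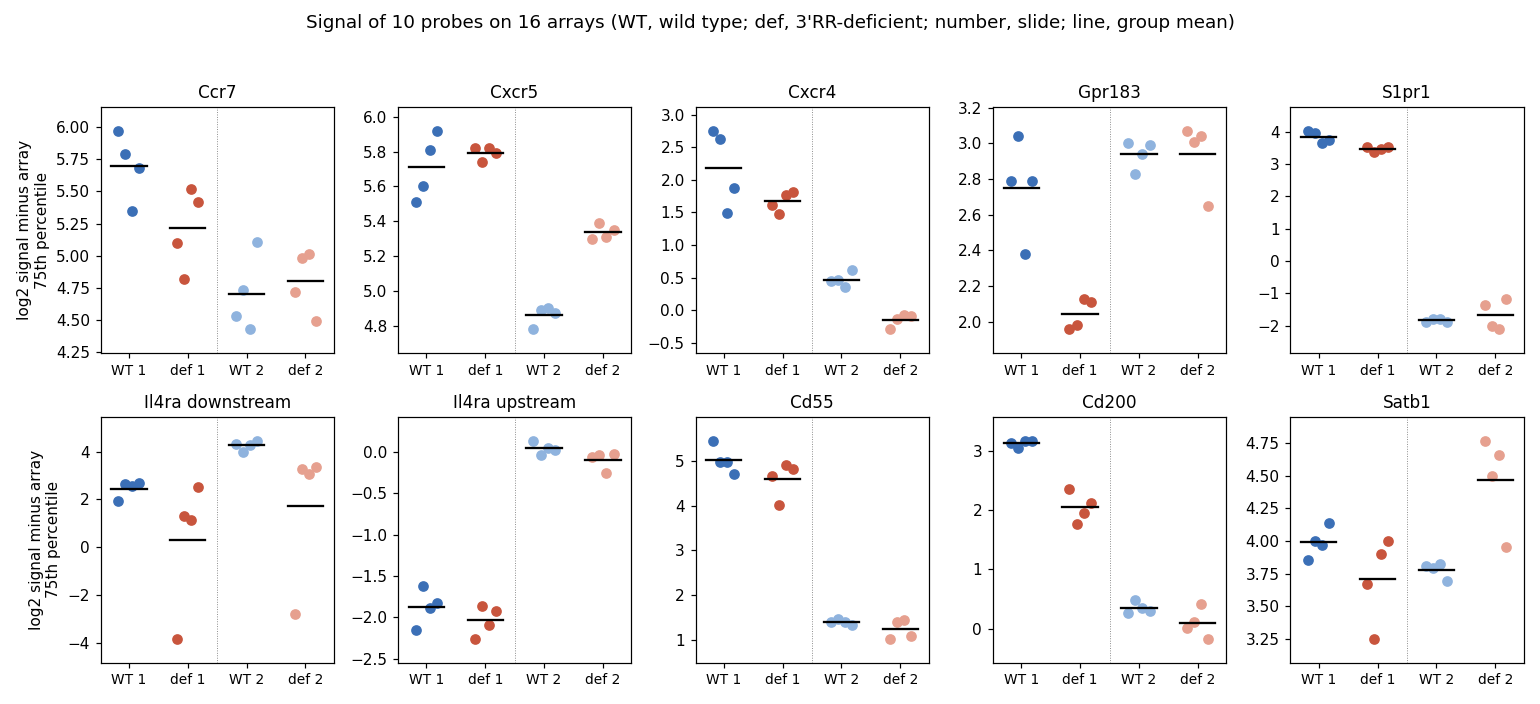
Each panel plots the log2 signal of 1 probe minus the array's 75th percentile (vertical axis, scaled per panel) on the 4 arrays of each group: wild type (WT) and 3'RR-deficient (def) on slides 1 and 2, with a line at the group mean. Cd200, Gpr183 and S1pr1 separate the genotypes on slide 1, and Cxcr5, Cxcr4, Satb1 and the downstream Il4ra probe on slide 2. S1pr1, Cd55 and Cd200 sit far lower on slide 2 in both genotypes.

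Cxcr5, the receptor for Cxcl13 that places B cells in follicles, was higher in deficient cells on slide 2. On slide 1 the wild-type arrays 2, 5, 6 and 8 read 5.51, 5.60, 5.81 and 5.92 and the deficient arrays 9 to 12 read 5.82, 5.74, 5.82 and 5.79. On slide 2 the wild-type arrays 1, 2, 3 and 5 read 4.78, 4.89, 4.90 and 4.87 and the deficient arrays 1 to 4 read 5.30, 5.39, 5.31 and 5.35. The genotypes overlapped on slide 1 and were fully separated on slide 2, where every array lay close to its group mean. The difference was 0.08 on slide 1 (SE 0.08, limma adjusted p = 0.498) and 0.48 on slide 2 (SE 0.08, adjusted p = 0.00264), a 1.39-fold higher signal. Over both slides it was 0.28 (SE 0.06, adjusted p = 0.00541). The difference between the slides was 0.39 (adjusted p = 0.0403), a call that was lost in 13 of 16 fits that each left out 1 array, with adjusted p between 0.0151 and 0.0845 over the 16, and that held without deficient array 11 or wild-type array 2 or 5 of slide 1. It was also lost with arrays scaled to their median (0.48, adjusted p = 0.0517) and with normexp background correction (0.35, adjusted p = 0.0517). The same held after quantile normalization (0.16, adjusted p = 0.412) and with no filter on dim probes (0.39, adjusted p = 0.103).

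Ccr7, the receptor for Ccl19 and Ccl21, was among the probes with no call between genotypes. Wild-type arrays of slide 1 read 5.97, 5.79, 5.35 and 5.68 and deficient arrays 5.10, 4.82, 5.52 and 5.42. On slide 2 the wild-type values were 4.53, 4.73, 4.43 and 5.11 and the deficient values 4.72, 4.98, 5.01 and 4.49. The groups overlapped on both slides. The difference was -0.49 on slide 1 (95% interval -0.90 to -0.07, limma adjusted p = 0.0817) and 0.10 on slide 2 (-0.31 to 0.51, adjusted p = 0.834). Wild-type array 6 of slide 1 was the lowest of its group, and without it the slide 1 difference was -0.60 with an adjusted p of 0.0489.

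Cxcr4, the receptor for Cxcl12, was lower in deficient cells, with a difference of -0.57 over both slides (SE 0.15, limma adjusted p = 0.0207), a 1.48-fold lower signal. The slide 1 values were 2.75, 2.62, 1.49 and 1.88 in wild-type arrays and 1.61, 1.48, 1.77 and 1.81 in deficient arrays. Those of slide 2 were 0.45, 0.46, 0.35 and 0.62 in wild-type and -0.29, -0.14, -0.07 and -0.09 in deficient arrays. The wild-type arrays of slide 1 fell in a high and a low pair, the low pair within or next to the deficient range, while on slide 2 all wild-type arrays lay above all deficient arrays. Within slides the difference was -0.52 (SE 0.22, adjusted p = 0.0959) and -0.62 (SE 0.22, adjusted p = 0.102), and the spread shared by the 4 groups included that of wild-type slide 1. Fitted on slide 2 alone, the same difference had an adjusted p of 0.00299, and without wild-type array 6 of slide 1 the slide 1 difference was -0.75 with an adjusted p of 0.00988 and that of slide 2 had an adjusted p of 0.0318. The difference over both slides was -0.54 with an adjusted p of 0.0688 without deficient arrays 9 of slide 1 and 1 of slide 2, which are described below for Il4ra.

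Gpr183, the oxysterol receptor that guides activated B cells to the outer follicle, was lower in deficient cells on slide 1. The wild-type arrays read 2.79, 3.04, 2.38 and 2.79 and the deficient arrays 1.96, 1.98, 2.13 and 2.11. On slide 2 the wild-type arrays read 3.00, 2.83, 2.94 and 2.99 and the deficient arrays 3.07, 3.01, 3.04 and 2.65. All deficient arrays of slide 1 lay below all wild-type arrays, whereas 3 of the 4 deficient arrays of slide 2 lay above all wild-type arrays and array 4 lay below them. The slide 1 difference was -0.71 (SE 0.13, limma adjusted p = 0.00188), a 1.63-fold lower signal, and the slide 2 difference was 0.00 (95% interval -0.27 to 0.28, adjusted p = 0.995). The difference between the slides was 0.71 (adjusted p = 0.021). Over both slides the difference was -0.35 (adjusted p = 0.0164), with an adjusted p of 0.0895 when the slide was fitted as an additive block and of 0.0945 as a random block.

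S1pr1, the receptor that lets lymphocytes leave lymphoid tissue, differed little between genotypes and by far the most between slides. On slide 1 the wild-type arrays read 4.02, 3.96, 3.64 and 3.74 and the deficient arrays 3.52, 3.38, 3.47 and 3.53. On slide 2 the wild-type arrays read -1.87, -1.78, -1.79 and -1.87 and the deficient arrays -1.36, -2.02, -2.10 and -1.18. The deficient arrays of slide 1 all lay just below the wild-type arrays, while those of slide 2 lay on both sides of them in pairs. The differences were -0.37 (95% interval -0.74 to 0.00, limma adjusted p = 0.135) and 0.16 (-0.21 to 0.53, adjusted p = 0.669).

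Il4ra was read by a pair of probes whose starts lie 10372 bases apart on the forward strand of chromosome 7 (mm9). The upstream probe covers chr7:132712550-132712609 and the downstream probe chr7:132722922-132722981. The probe of Gdpd3, a gene of the glycerophosphodiester phosphodiesterase family further along the chromosome, is given with them because the same arrays stood apart there. The first 30 of 60 bases of these probes, as the array files give them, are shown because the 2 Il4ra probes differ in what they report for the same gene.
Il4ra upstream probe: atcccgaggaacagtgccagcactgtgtgt
Il4ra downstream probe: acctgttgggaattccaaccctcaccagtc
Gdpd3 probe: ctgtggatggatgaaccaactgtcggctac

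At the downstream Il4ra probe the wild-type arrays of slide 1 read 1.93, 2.62, 2.55 and 2.69 and the deficient arrays 9 to 12 read -3.83, 1.31, 1.14 and 2.53. On slide 2 the wild-type arrays read 4.30, 3.96, 4.29 and 4.46 and the deficient arrays 1 to 4 read -2.79, 3.25, 3.07 and 3.36. Deficient array 9 of slide 1 and deficient array 1 of slide 2 differed from the lowest other deficient array of their slide by -4.97 and -5.85, while still well above background. The upstream probe showed no such gap: its values were -2.16, -1.62, -1.89 and -1.83 in wild-type and -2.26, -1.86, -2.09 and -1.93 in deficient arrays of slide 1, and 0.14, -0.03, 0.05 and 0.03 and -0.06, -0.04, -0.25 and -0.02 on slide 2.

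With all arrays, the downstream difference was -2.34 over both slides (SE 0.96, limma adjusted p = 0.116), -2.16 on slide 1 (SE 1.36, adjusted p = 0.267) and -2.53 on slide 2 (SE 1.36, adjusted p = 0.314). Without those 2 arrays, left out after their values were seen, it was -0.91 over both slides (adjusted p = 0.0145), -0.79 on slide 1 (adjusted p = 0.0857) and -1.02 on slide 2 (adjusted p = 0.0693). Without array 9 of slide 1 alone it was -1.66 over both slides (adjusted p = 0.182), and without array 1 of slide 2 alone -1.59 (adjusted p = 0.167). The upstream difference was -0.15 over both slides (95% interval -0.32 to 0.02, adjusted p = 0.231).

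The probe of Gdpd3 at chr7:133914520-133914693 (mm9), 1.19 Mb from the downstream Il4ra probe, read -6.10 and -7.01 in the same 2 deficient arrays, where it was not well above background. In the other deficient arrays it read 3.65 to 3.96 on slide 1 and 1.79 to 2.21 on slide 2, and in wild-type arrays 4.81 to 5.28 and 3.18 to 3.49. Il21r, the receptor chain gene next to Il4ra at 0.05 Mb, read 1.12, 2.50, 1.78 and 3.05 in deficient arrays 9 to 12 of slide 1 and 2.77, 3.83, 3.79 and 3.61 in deficient arrays 1 to 4 of slide 2, beside 2.86 to 3.17 and 4.01 to 4.30 in wild-type arrays. The same pair of arrays was thus lowest for Il21r as well, with differences of -0.66 and -0.84 from the next deficient array. The probes of Nsmce1, Gtf3c1 and Xpo6 in the same stretch differed by -0.05 to 0.07 from the nearest of the other deficient arrays, or lay among them. Probes lower by at least 1 in both arrays than in the other deficient arrays of the slide were then counted. Within 2 Mb on either side of the downstream Il4ra probe they were 2 of 154 measured probes, that probe itself and that of Gdpd3. Over the whole array they were 17 of 32881, 5 of them on chromosome 7. Apart from these 2, those on chromosome 7 lay 3.42, 45.23 and 128.93 Mb away. The 2 arrays were picked by their low downstream Il4ra signal, so that probe's place in the counts was fixed in advance. What sets these arrays apart was not tested.

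**Figure D2:**
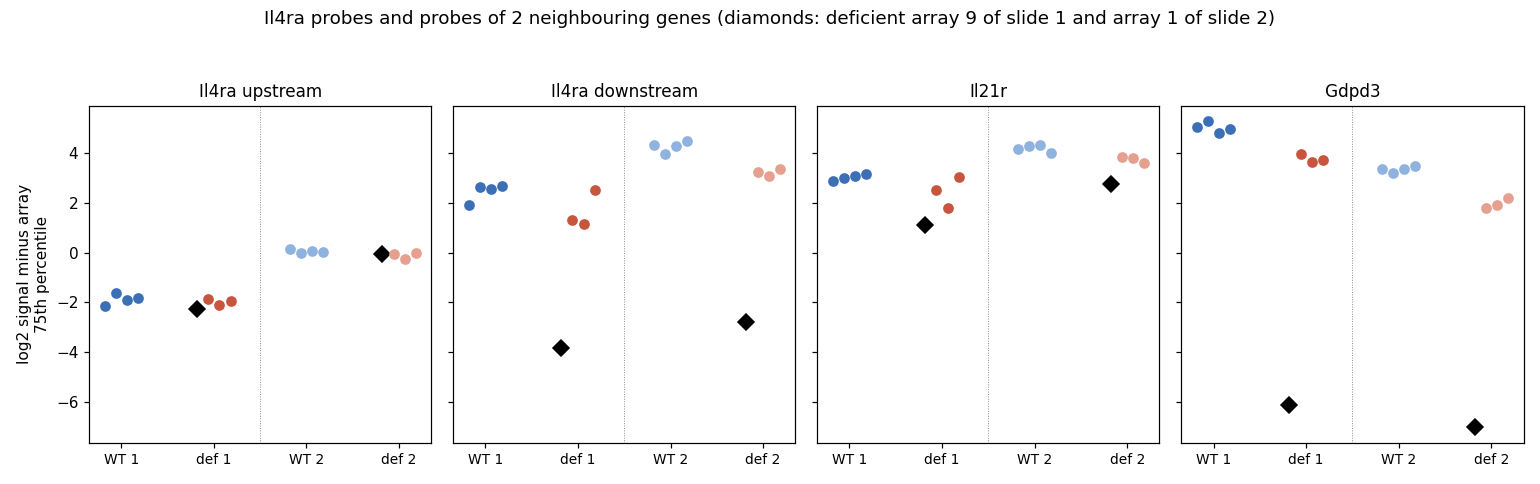
The 4 panels plot the log2 signal minus the array's 75th percentile (shared vertical axis) of the upstream and downstream Il4ra probes, Il21r and Gdpd3 on the 4 arrays of each group: wild type (WT) and 3'RR-deficient (def) on slides 1 and 2. Black diamonds mark deficient array 9 of slide 1 and array 1 of slide 2, which fall to -3.83 and -2.79 at the downstream Il4ra probe and to -6.10 and -7.01 for Gdpd3 but not at the upstream Il4ra probe.

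Cd55, the complement decay accelerating factor, read 5.46, 4.97, 4.98 and 4.72 in wild-type and 4.67, 4.02, 4.91 and 4.83 in deficient arrays of slide 1. On slide 2 it read 1.40, 1.47, 1.40 and 1.32 in wild-type and 1.02, 1.39, 1.43 and 1.07 in deficient arrays. The groups overlapped on both slides. The difference over both was -0.30 (95% interval -0.59 to -0.01, limma adjusted p = 0.147).

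Cd200, the ligand of the inhibitory receptor Cd200r1, had the smallest adjusted p of the 10 probes over both slides. On slide 1 it read 3.13, 3.04, 3.17 and 3.16 in wild-type and 2.35, 1.76, 1.94 and 2.12 in deficient arrays. On slide 2 it read 0.27, 0.48, 0.35 and 0.30 in wild-type and 0.01, 0.11, 0.42 and -0.17 in deficient arrays. The wild-type arrays of slide 1 lay close together and well above every deficient array, whereas on slide 2 deficient array 3 lay inside the wild-type range and the other deficient arrays below it. The difference was -1.08 on slide 1 (SE 0.13, limma adjusted p = 0.000119), a 2.11-fold lower signal, and -0.26 on slide 2 (SE 0.13, adjusted p = 0.285). Over both slides it was -0.67 (SE 0.09, adjusted p = 0.000257). The difference between the slides was 0.82 (adjusted p = 0.0127).

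Satb1, the chromatin organiser, was higher in deficient cells on slide 2 and not on slide 1. The slide 1 values were 3.85, 4.00, 3.97 and 4.14 in wild-type and 3.67, 3.25, 3.90 and 4.00 in deficient arrays. On slide 2 they were 3.81, 3.79, 3.82 and 3.69 in wild-type and 4.77, 4.50, 4.66 and 3.95 in deficient arrays. The genotypes overlapped on slide 1, and on slide 2 all deficient arrays lay above all wild-type arrays, array 4 the closest to them. The difference was -0.29 on slide 1 (SE 0.18, limma adjusted p = 0.25) and 0.69 on slide 2 (SE 0.18, adjusted p = 0.0281), with 0.98 between the slides (adjusted p = 0.0207). The slide 2 call was lost without any 1 of deficient arrays 1, 2 and 3 or of the 4 wild-type arrays of that slide, 7 of 16 fits in all, with adjusted p up to 0.087, and after quantile normalization (adjusted p = 0.0653) or with no filter on dim probes (adjusted p = 0.0536).

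**Figure D3:**
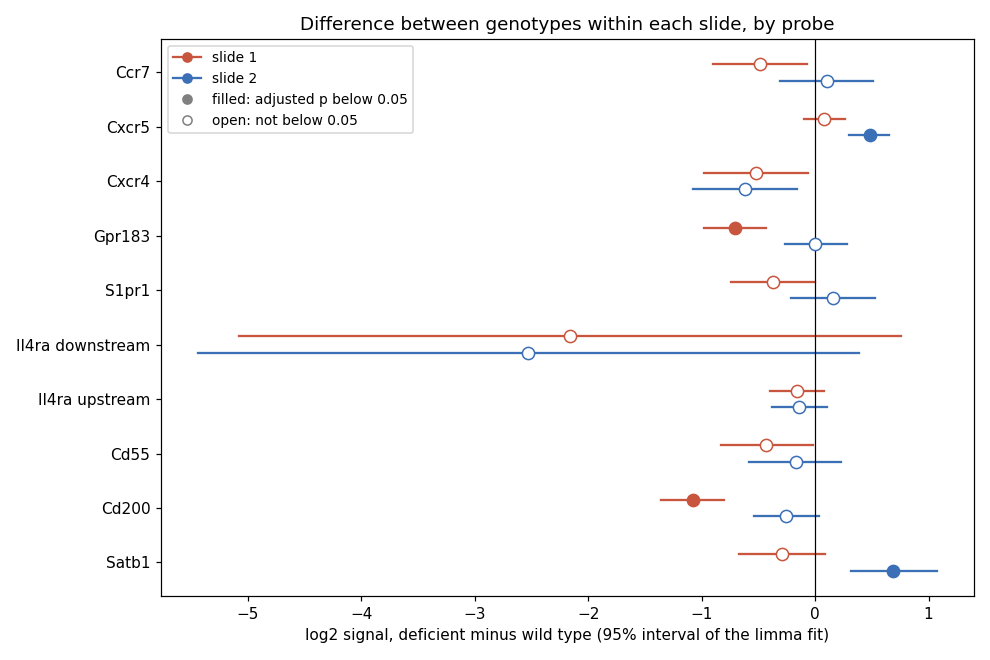
For each of the 10 probes, points give the log2 difference between deficient and wild-type arrays (horizontal axis) on slide 1 (red) and slide 2 (blue), with lines for the 95% interval of the limma fit and filled points for an adjusted p below 0.05. Gpr183 and Cd200 are filled on slide 1 at -0.71 and -1.08, Cxcr5 and Satb1 on slide 2 at 0.48 and 0.69, and the downstream Il4ra probe has by far the widest intervals.

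The genotype difference itself differed between slides for 4 of the 10 probes, Cxcr5, Gpr183, Cd200 and Satb1, and in each it was more positive on slide 2. Of all probes, 13.9% were called in this comparison, 2866 of them more positive and 1690 more negative on slide 2. Without deficient array 9 of slide 1 and array 1 of slide 2, and likewise after quantile normalization, 1 of the 10 probes was called, that of Cd200. Plasma cell markers moved the other way: 4 of 6 genes were more negative on slide 2 and none more positive, with a median of -1.25 beside 0.09 for all genes, of which 15.9% were called. On slide 1 the plasma cell genes Jchain and Xbp1 were higher in deficient cells by 1.05 and 0.54 and Irf4 fell by 0.60, while on slide 2 Sdc1 fell by 1.42, Prdm1 by 1.35 and Jchain by 1.09. Their part in the differences between slides was not tested, nor was that of the globin gene Hbb-b1, which was called in this comparison as well and was not well above background on any wild-type array of slide 2. For the other 6 probes no difference between slides was called, with 95% intervals as unlike as 0.01 to 1.05 for S1pr1 and -4.49 to 3.76 for the downstream Il4ra probe.

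The slides themselves differed for most members. In wild-type cells 7 of the 10 probes differed between slides, 1 higher and 6 lower on slide 2, against 72.9% of all probes, and in deficient cells 8 differed, 3 higher and 5 lower, against 74.7%. S1pr1 was 50.9-fold lower on slide 2 in wild-type cells (-5.67, SE 0.17, limma adjusted p = 5.09e-12) and 35.2-fold lower in deficient cells (-5.14, SE 0.17, adjusted p = 1.21e-11). Cd55 was 12.4-fold and 10.4-fold lower, Cd200 6.84-fold and 3.86-fold lower, and Cxcr4 3.28-fold and 3.52-fold lower on slide 2, in wild-type and deficient cells in that order. Cxcr5 was lower as well, with log2 differences of -0.85 and -0.46. Ccr7 was 2-fold lower in wild-type cells (adjusted p = 0.000299) and had a difference of -0.41 in deficient cells (adjusted p = 0.0635), which was called with arrays scaled to their median (-0.71, adjusted p = 0.00354), after quantile normalization (-0.96, adjusted p = 0.000417), without deficient array 10 of slide 1 (-0.55, adjusted p = 0.0204) and without wild-type array 5 of slide 2 (-0.41, adjusted p = 0.0462). The downstream Il4ra probe had differences of 1.81 (adjusted p = 0.244) and 1.44 (adjusted p = 0.349), and of 1.81 (adjusted p = 7e-05) and 1.57 (adjusted p = 0.000739) without deficient arrays 9 of slide 1 and 1 of slide 2. Its deficient value was 0.06 (adjusted p = 0.963) without array 9 alone and 2.94 (adjusted p = 0.0225) without array 1 alone. The upstream Il4ra probe was higher by 1.92 and 1.94, 3.79-fold and 3.84-fold. Gpr183 was higher on slide 2 in deficient cells by 0.90 (adjusted p = 1.71e-05) and had a difference of 0.19 in wild-type cells (adjusted p = 0.194). Satb1 was higher on slide 2 in deficient cells by 0.77 (adjusted p = 0.0012), with 0.34 and an adjusted p of 0.0875 after quantile normalization. In wild-type cells its difference was -0.21 (adjusted p = 0.285). That difference was called as lower with arrays scaled to their median (-0.59, adjusted p = 0.013) and after quantile normalization (-0.44, adjusted p = 0.0328).

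The median difference of all probes between slides was 0.35 in wild-type and 0.39 in deficient cells, and -0.03 and 0.10 with arrays scaled to their median, so the members' values on either scale differ by about that shift. With median scaling the share of called probes that were higher on slide 2 was 47.4% in place of 65.4% in wild-type cells and 53.2% in place of 65.7% in deficient cells. The averages of the macrophage and T cell markers given above were lower on slide 2. The 11 follicular B cell genes measured averaged 4.38 to 4.66 on slide 1 and 1.49 to 1.92 on slide 2. Of 16 T cell genes, 13 were lower and 1, Thy1, was higher on slide 2 in each genotype. Of all genes, 73.9% were called between slides in wild-type and 76.1% in deficient cells. Of the macrophage genes, 5 were not well above background on any wild-type array of slide 2 and 4 on no deficient array. The part of such markers in the members' slide differences was not tested, and slide, scan and mice cannot be told apart.

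**Figure D4:**
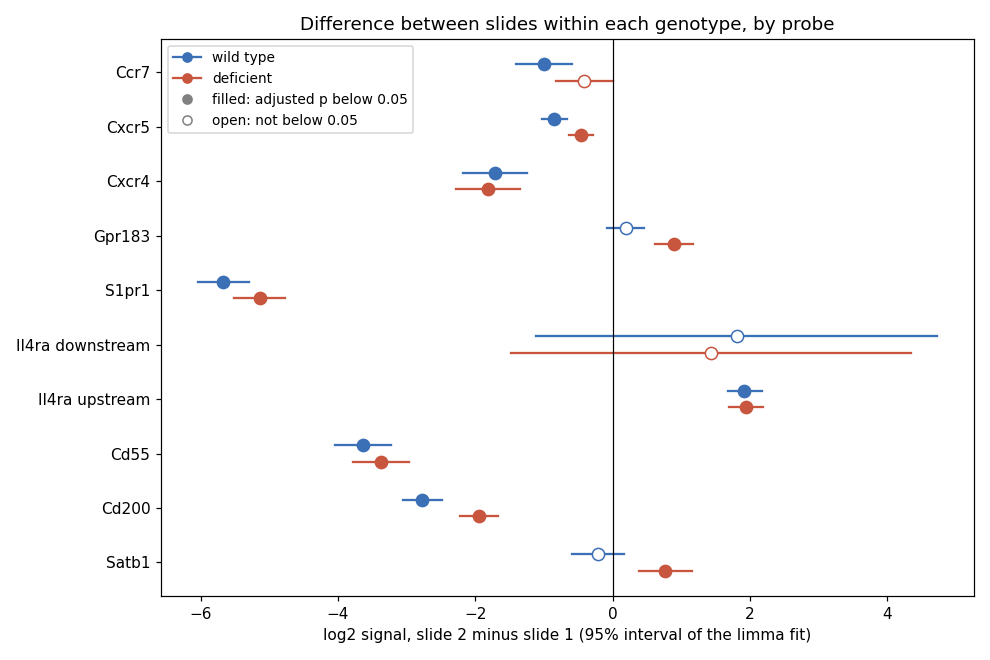
For each of the 10 probes, points give the log2 difference between slide 2 and slide 1 (horizontal axis) in wild-type (blue) and deficient (red) cells, with lines for the 95% interval of the limma fit and filled points for an adjusted p below 0.05. S1pr1 lies at -5.67 and -5.14 and Cd55 at -3.63 and -3.38, while the upstream Il4ra probe lies at 1.92 and 1.94.

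For the lists of other genes, the brightest measured probe stood for a gene and p-values were adjusted over 22736 genes. Of these, 17.5% were called over both slides, 24.9% on slide 1 and 8.49% on slide 2, and 73.9% and 76.1% between the slides in wild-type and deficient cells.

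Among the ligands of these receptors and the enzymes that make or remove them, 13 of 20 listed genes were measured. In deficient cells 2 rose over both slides, Ccl19 and Cd200r4, and none fell, beside 17.5% of all genes called. Ccl19, a ligand of Ccr7, was higher by 0.52 (limma adjusted p = 0.0412), from 0.98 on slide 1 (adjusted p = 0.00778) and 0.05 on slide 2 (adjusted p = 0.938). Of the Cd200 receptor family, Cd200r4 was higher by 0.42 (adjusted p = 0.0463), but was well above background on 1 wild-type and 3 deficient arrays of slide 1 and on no array of slide 2. Cd200r1, the receptor of Cd200, differed by -0.46 (adjusted p = 0.0661). Cxcl13, the ligand of Cxcr5, differed by 0.44 (SE 0.63, adjusted p = 0.683) and was not well above background on any wild-type array of slide 2. Il4 was well above background on slide 1 alone, where it differed by 0.44 (adjusted p = 0.119). Cxcl12 and Ch25h, which makes the precursor of the Gpr183 ligand, were on the array and not measured.

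Of 26 other trafficking receptors and adhesion molecules, 5 rose and 3 fell over both slides, beside 17.5% of all genes called. Cxcr3, the receptor for the interferon-induced chemokines Cxcl9 and Cxcl10, rose by 2.26 (SE 0.16, limma adjusted p = 5.25e-07), with wild-type arrays at 1.52 to 2.23 and deficient arrays at 3.61 to 4.69 on slide 1, and at -3.49 to -3.09 and -1.20 to -0.52 on slide 2. The integrin chains Itgb1 and Itgal rose by 0.54 (adjusted p = 0.0013) and 0.57 (adjusted p = 0.00199), and the adhesion molecule Icam2 fell by 0.22 (adjusted p = 0.016). The slides differed for Icam2 (adjusted p = 0.0068), at -0.50 on slide 1 (adjusted p = 0.000834) and 0.06 on slide 2 (adjusted p = 0.744). Cd69, which pulls S1pr1 from the cell surface, fell by 0.63 (adjusted p = 0.0458), from -1.22 on slide 1 (adjusted p = 0.00827) and -0.05 on slide 2 (adjusted p = 0.956). The S1pr1 paralogs S1pr2, S1pr3, S1pr4 and S1pr5 had adjusted p between 0.105 and 0.993 over both slides. On slide 1 S1pr5 was higher in deficient cells (adjusted p = 0.0061), at -2.47 to -1.34 in wild-type and -0.97 to -0.08 in deficient arrays, whereas no array of slide 2 read it well above background. For S1pr2 the genotype difference was more negative on slide 2 than on slide 1 by -1.58 (adjusted p = 0.0449).

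Of 26 genes that carry or limit the receptors' signals, 3 fell and none rose over both slides, beside 17.5% of all genes called. Rgs1 and Rgs2, which speed the turn-off of G proteins behind chemokine receptors, fell by 1.22 (SE 0.13, limma adjusted p = 2.84e-05) and fell by 0.85 (SE 0.10, adjusted p = 6.22e-05). Rgs1 differed by -1.83 on slide 1 (adjusted p = 3.04e-05) and -0.61 on slide 2 (adjusted p = 0.0608). Rgs2 differed by -1.24 (adjusted p = 7.51e-05) and -0.46 (adjusted p = 0.0638). The difference between the slides was called for both (adjusted p of 0.00957 and 0.0194). Klf2, a transcription factor that controls S1pr1, fell by 0.55 (adjusted p = 0.0296), from -0.78 on slide 1 (adjusted p = 0.0229) and -0.32 on slide 2 (adjusted p = 0.458). Foxo1, which acts upstream of Klf2 and Ccr7, differed by 0.06 (adjusted p = 0.599). The G protein subunit Gnai2, used by these receptors, differed by -0.08 (adjusted p = 0.461).

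In the interleukin 4 receptor pathway, 3 of 13 genes rose and none fell over both slides, beside 17.5% of all genes called. Jak3, the kinase bound to the shared gamma chain, rose by 0.56 (limma adjusted p = 0.00417), and the feedback inhibitors Socs1 and Socs3 rose by 0.74 (adjusted p = 0.00444) and 0.62 (adjusted p = 0.047). On slide 1 Jak3, Socs1 and Socs3 were higher by 0.90, 1.69 and 1.00 (adjusted p of 0.00167, 0.000151 and 0.0201). On slide 2 they differed by 0.23, -0.22 and 0.23 (adjusted p of 0.453, 0.615 and 0.704). The 1 gene of the list that fell on slide 1 was Jak1, by 0.24 (adjusted p = 0.0216). Jak1 differed by -0.01 on slide 2 (adjusted p = 0.975). For Socs1 the difference between the slides was called (adjusted p = 0.002). Stat6, the factor activated by the receptor, differed by 0.11 (adjusted p = 0.261) and the gamma chain Il2rg by 0.10 (adjusted p = 0.137). Fcer2a (CD23), which interleukin 4 induces, differed by -0.46 on slide 1 (adjusted p = 0.211) and was higher by 1.46 on slide 2 (adjusted p = 0.00325), with an adjusted p of 0.00561 for the difference between the slides. Its deficient arrays read 4.07 to 5.63 and its wild-type arrays 3.41 to 3.69 on slide 2.

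Of 7 measured genes of complement control and complement receptors, 3 fell and none rose over both slides, beside 17.5% of all genes called. Cd81 fell by 0.34 (limma adjusted p = 0.00351), Cr2 by 0.39 (adjusted p = 0.0122) and Cd59a by 0.44 (adjusted p = 0.022). Cd59a, an inhibitor of the membrane attack complex, differed by 0.14 on slide 1 (adjusted p = 0.568) and fell by 1.02 on slide 2 (adjusted p = 0.00177), with an adjusted p of 0.00747 for the difference between the slides. Cr2 (CD21), shared with the lists of follicular and marginal zone genes, ran with the slide as S1pr1 did, at 7.36 to 7.70 in wild-type arrays of slide 1 and 0.54 to 1.03 in those of slide 2.

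Of 11 follicular B cell genes, 2 rose and 2 fell over both slides, beside 17.5% of all genes called. Bach2, a repressor of plasma cell fate, rose by 0.66 (limma adjusted p = 0.000319), and the inhibitory receptor Cd22 rose by 1.07 (adjusted p = 0.037), while Cr2 and Klf2 fell as above. Of 11 marginal zone genes, 1 rose and 4 fell. Cd9, a tetraspanin, fell by 0.79 (adjusted p = 0.000104), Cd36 by 1.35 (adjusted p = 0.000891) and Cd1d1 by 0.48 (adjusted p = 0.0111), and Plxnd1 rose by 0.82 (adjusted p = 0.00326). The median difference was 0.06 for the follicular and -0.22 for the marginal zone list, beside -0.03 for all genes.

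Of 19 immediate early and activation genes, 14 fell and none rose over both slides and on slide 1, and 3 fell on slide 2. Of all genes, 17.5% were called over both slides, 24.9% on slide 1 and 8.49% on slide 2. Over both slides Egr1 fell by 0.85 (limma adjusted p = 0.002) and Dusp1 by 1.04 (adjusted p = 0.00219). Egr1 differed by -0.79 on slide 1 (adjusted p = 0.018) and -0.91 on slide 2 (adjusted p = 0.0189). Dusp1 differed by -1.71 (adjusted p = 0.000774) and -0.37 (adjusted p = 0.472), and its difference between the slides was called (adjusted p = 0.0308). The mean level of the list ran from 2.12 to 3.07 in wild-type and 1.54 to 1.80 in deficient arrays of slide 1. On slide 2 it ran from 1.17 to 1.30 and from 0.81 to 1.03. The part of this list in the lower signal of Gpr183, Cd200 and Cxcr4 was not tested. Of the macrophage genes, none was called between genotypes on either slide or over both. Of 16 T cell genes, 2 rose and 2 fell over both, beside 17.5% of all genes called. Of 6 neutrophil genes, 2 rose on slide 1, beside 24.9% of all genes called there. They were Ly6g, by 1.49 (adjusted p = 3.11e-05), and Retnlg, by 2.37 (adjusted p = 0.0367), with a list median of 1.51. The other neutrophil genes were not called on slide 1, with differences in both directions from -0.82 to 1.63, and none of the list was called on slide 2. Of 6 plasma cell genes 2 rose and 1 fell on slide 1 and 3 fell on slide 2, as given above. The part of these lists in the members' differences was not tested. On slide 2 the deficient arrays carried more globin RNA, with Hbb-b1 at least 33.4-fold higher (adjusted p = 1.8e-05), as it was not well above background on any wild-type array there and the bound is taken against the lowest signal well above background. Its part in the slide 2 differences of Cxcr5 and Satb1 was not tested.

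Among 22657 other measured genes, the profile over 16 arrays most like that of a member was sought by the root mean square distance, in log2 units, between profiles centred on their own mean. Cxcr5 was nearest to Zbtb18, a zinc finger repressor, at 0.10, where all genes had a median distance of 0.74. Gpr183 was nearest to Dapp1, an adaptor of B cell receptor signalling, at 0.14, and Ccr7 to Eno3, a muscle-type enolase, at 0.17. S1pr1 was nearest to Itgb7, an integrin chain of gut homing, at 0.19 beside a median of 2.92 for all genes. Cd55 was nearest to March1 and Satb1 to Scap, both at 0.22, and Cd200 to Ets2 at 0.24. Cxcr4 was nearest to a lincRNA probe named by its coordinates, at 0.22. The downstream Il4ra probe, which had the higher mean over 16 arrays and so stood for the gene, had no gene nearer than Sema3b at 1.26. All these profiles share arrays, slides and scaling, and the distances carry no test.

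The RefSeq promoter table (GRCm38.p6) held 6 of the 9 genes, without Ccr7, Cxcr5 and S1pr1. The 250 bases before the start are shown for the members that were lower over both slides and in the table, and for Il4ra, in 5′ to 3′ order on the gene's strand. The Cxcr4 window is chr1:128592300-128592549 (minus strand), that of Gpr183 chr14:121965194-121965443 (minus), that of Cd200 chr16:45409054-45409303 (minus) and that of Il4ra chr7:125552021-125552270 (plus). Capitals mark the octamer ATGCAAAT, which Oct factors of B cells bind.
Cxcr4: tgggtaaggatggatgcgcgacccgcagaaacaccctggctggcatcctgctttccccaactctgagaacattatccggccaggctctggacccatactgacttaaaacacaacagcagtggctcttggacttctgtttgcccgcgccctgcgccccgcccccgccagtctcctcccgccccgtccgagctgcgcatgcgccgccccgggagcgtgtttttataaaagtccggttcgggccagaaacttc
Gpr183: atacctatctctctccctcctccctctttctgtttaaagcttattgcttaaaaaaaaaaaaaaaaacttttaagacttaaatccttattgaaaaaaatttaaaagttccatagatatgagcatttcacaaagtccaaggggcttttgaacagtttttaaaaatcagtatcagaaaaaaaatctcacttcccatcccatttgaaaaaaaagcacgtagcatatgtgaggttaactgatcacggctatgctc
Cd200: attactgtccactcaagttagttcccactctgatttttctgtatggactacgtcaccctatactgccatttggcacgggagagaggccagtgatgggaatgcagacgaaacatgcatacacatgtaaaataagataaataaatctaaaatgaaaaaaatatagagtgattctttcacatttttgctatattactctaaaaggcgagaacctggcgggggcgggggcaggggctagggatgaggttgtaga
Il4ra: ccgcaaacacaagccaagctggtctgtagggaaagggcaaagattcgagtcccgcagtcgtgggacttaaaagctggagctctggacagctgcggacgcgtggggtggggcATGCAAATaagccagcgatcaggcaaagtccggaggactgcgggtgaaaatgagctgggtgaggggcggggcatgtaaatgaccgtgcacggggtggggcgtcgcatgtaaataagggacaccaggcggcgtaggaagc

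The windows were searched on both strands for 9 motifs: the octamer ATGCAAAT, a KLF site GGGTGTG, a FOXO site GTAAACA, an AP-1 site TGANTCA, a CRE TGACGTCA, a PU.1 site GAGGAAGT, an NF-kappaB site GGANTTTCC, an interferon response element GAAANNGAA and an EGR site GCGTGGGCG. The Il4ra window held the octamer 139 to 132 bases before the start, and 1.6% of 32851 windows of the same length held it. A KLF site stood in 1 of the several windows of Satb1, where 6.93% of all windows had it. That share is per window, and a gene with several windows has more occasions to hold a site. The windows of Cxcr4, Gpr183, Cd200 and Cd55 held none of these letters. The other shares over all windows were 3.17% for FOXO, 6.75% for AP-1, 1.55% for the CRE, 2.44% for PU.1, 1.07% for NF-kappaB, 7.13% for the interferon response element and 0.536% for EGR. The windows differed in base composition, from 32% G or C in Gpr183 and 42.4% in Cd200 to 59.6% in Il4ra, 61.2% in Cxcr4 and 64% in Cd55.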

How the data were processed

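Each array is the scanner output of 1 sample. The spot intensity values (processed signal) are those the authors deposited, and per the file headers they were made with Agilent Feature Extraction 10.7.3.1, background-subtracted within the array and not normalized between arrays. A table of log2 values, also deposited by the authors, has column medians of 5.77 to 5.79 on slide 1 and 6.61 to 6.62 on slide 2; how its background and scale were treated is, in the sources used here, not given, and it was an alternative within slides. Limma appears in the submitters' processing notes of slide 2. Per the file headers, probe positions are on mm9. The 2 annotation releases named 2201 spots differently, none of them a member.

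Values were log2 of the processed signal less that array's 75th percentile, without the 3671 control spots among 62976 and without outlier-flagged spots, with spots of 1 probe averaged. Probes were kept where 4 or more of 16 arrays were well above background. One mean per genotype and slide was fitted with limma 3.58.1 in R 4.3.3 (lmFit, contrasts, eBayes), with Benjamini-Hochberg adjustment over 32881 probes. The fit was tested on simulated data. In lists, the brightest measured probe stood for a gene, with adjustment over 22736 genes; up to 4 genes with the smallest adjusted p were named from each list, plus ligands, paralogs and direct signalling partners of a member. Foxo1, Jchain, Cd44, Cish, Ccr10, Itgb7's values and the chromosome 7 neighbours of Il4ra fall outside that rule and were chosen after their values were seen. The members and lists were chosen with earlier results of these data known. The number of arrays limits the precision. 1 listed gene is not reported here by name. The alternatives were other scalings, backgrounds, filters, blocks and array weights, and each array left out.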

Additional observations from a re-analysis of the deposited data

Results flagged for a closer look

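In 3 of 40 groups of 4 arrays, 1 array stood apart by more than Dixon's 95% critical value, where chance gives about 1 in 20 groups. At the downstream Il4ra probe, deficient array 1 of slide 2 lay at -2.79 below the next array at 3.07, a gap of 0.953 of the group's range. At the upstream Il4ra probe, deficient array 3 of slide 2 lay lowest at -0.25, with a gap of 0.841 of a range that was itself small. For Gpr183, deficient array 4 of slide 2 lay lowest at 2.65, with a gap of 0.838 of the range, and the same array was the lowest deficient array of slide 2 for Satb1, at 3.95, and for Ccr7, at 4.49. Deficient array 9 of slide 1 had a gap of 0.781 at the downstream Il4ra probe, which is under the critical value.

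The genotype difference was more positive on slide 2 than on slide 1 by 0.39 for Cxcr5, 0.71 for Gpr183, 0.82 for Cd200 and 0.98 for Satb1, each tested as the interaction of genotype and slide in the limma fit (adjusted p of 0.0403, 0.021, 0.0127 and 0.0207). The call of Cxcr5 was lost with median scaling and in most fits that left out 1 array. After quantile normalization only the call of Cd200 remained.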

How the results depend on the processing

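Over both slides, 4 member probes were called under each scaling, background, filter and array-weight alternative and with any 1 array left out, and 3 with the slide as an additive or a random block. The slide 1 count of 2 ranged from 2 to 4 with 1 array left out (4 without wild-type array 6), and the slide 2 count of 2 from 1 to 3. The slide 2 count was 1 after quantile normalization, with no filter on dim probes, and without deficient arrays 9 of slide 1 and 1 of slide 2. The count of 4 for the difference between slides was 3 with arrays scaled to their median and 3 with normexp background correction. It was 1 after quantile normalization, 2 with no filter and 1 without those 2 arrays. Without them, Cxcr4 over both slides had -0.54 and an adjusted p of 0.0688. Same-numbered arrays of slide 2 hardly deviated together (r of 0.01358, 0.09534 and 0.06315 for numbers 1, 2 and 3). These correlations cannot show whether the numbers pair samples. With the replicate block on slide 2 (6 arrays) 1 probe was called, and with the same 6 arrays and no block 3 were, and the call of Cxcr5, a difference of 0.48, was lost under the block (adjusted p of 0.05, and 0.0126 for the same 6 arrays with no block). No value that was called under either setting changed its direction. The cause of these changes was not tested. Leaving out those 2 arrays was chosen after seeing the data. All member probes were well above background on every array, so signal over background did not limit them.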

Other observations

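The other trafficking receptors and adhesion molecules also differed between the slides. Of 26, 6 were higher and 17 lower on slide 2 in wild-type cells, and 4 higher and 18 lower in deficient cells (limma adjusted p below 0.05), with medians of -1.64 and -1.23 beside 0.35 and 0.40 for all genes, of which 73.9% and 76.1% were called. Itgb7, nearest to S1pr1 in profile, read 4.98 to 5.47 in wild-type arrays of slide 1 and -0.14 to 0.16 in those of slide 2. Cd44, an adhesion receptor that rises on activated lymphocytes, was higher on slide 2 by 2.34 in wild-type cells (adjusted p = 2.78e-10).

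In the interleukin 4 receptor pathway, Socs1 read 0.06 to 0.67 in wild-type and 1.71 to 2.83 in deficient arrays of slide 1, and 3.72 to 4.26 and 3.58 to 3.98 on slide 2. Cish, a further feedback inhibitor of cytokine receptors, was higher on slide 2 by 6.25 in wild-type and by 5.60 in deficient cells, while its genotype difference over both slides was 0.11 (adjusted p = 0.673). Ccr10, a receptor of antibody-secreting cells, differed between genotypes by 1.66 on slide 1 (adjusted p = 0.00726) and by -1.45 on slide 2 (adjusted p = 0.0317), and the slides differed (adjusted p = 0.0033).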
